A study of Mus musculus with 6 samples.

Results

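The STATs and Janus kinases described here are the 9 mouse genes Stat2, Stat3, Stat4, Stat5a, Stat5b, Stat6, Jak1, Jak2 and Jak3, chosen by name as the genes of these families. They were read with the 19 probe sets whose platform annotation names only one of them, 13 for the 6 STAT genes and 6 for the 3 kinases, out of 34945 probe sets that name 1 gene and 18193 genes measured in all. Total RNA of cultured fibroblasts from mouse embryos (MEFs) was hybridized to 6 Affymetrix GeneChip mouse genome arrays. The groups were Atxn3-KO MEFs, which lack the deubiquitinase ATXN3 (3 arrays), and Atxn3-WT MEFs (3 arrays). Both were grown in the same serum-containing medium, with no treatment named for the array samples. The replicates are called biological, but the sources used here do not say whether they came from separate embryos or from 1 culture per genotype, so each p-value rests on the spread among these samples alone, and that spread may be technical. The part of Atxn3 that is disrupted and the age of the embryos are not given in the sources used here.

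Janus kinases are tyrosine kinases bound to the inner part of cytokine receptors. When a cytokine brings receptor chains together, the kinases phosphorylate each other, the receptor and then STAT proteins, which pair up, enter the nucleus and switch on target genes. In fibroblasts this pathway is best known for the response to interferons, where STAT2 works with the factor IRF9, and for the response to cytokines of the interleukin 6 family through gp130 and STAT3. STAT5A and STAT5B serve growth hormone and prolactin type receptors, STAT6 serves interleukins 4 and 13, and STAT4 and JAK3 act mainly in lymphoid cells. Activity in this pathway is set by phosphorylation, which an array of transcripts does not measure.

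The arrays were alike in level. Pairs of arrays of 1 genotype correlated at 0.998 to 0.999 over all probe sets. Values are robust multi-array average (RMA) levels on the log2 scale, so that a difference of 1 is a 2-fold change, and levels of different probe sets cannot be set against each other. The brighter Atxn3 probe set averaged 3.59 ± 0.15 in Atxn3-KO MEFs and 6.67 ± 0.14 in Atxn3-WT MEFs (SD, n = 3 each), and the other averaged 4.13 ± 0.20 in Atxn3-KO MEFs and 4.48 ± 0.24 in Atxn3-WT MEFs (SD, n = 3 each). A probe set is called dim in a genotype where its mean lies below 4.36, the lowest of the arrays' 25th percentiles. Cell type markers are each given by their brightest probe set. Of all 18193 genes taken in this way, 31.8% passed an adjusted p under 0.05 from limma, 17.1% higher and 14.7% lower in Atxn3-KO MEFs. Of 10 fibroblast markers, 0 were dim in both genotypes, 2 rose and 5 fell in Atxn3-KO MEFs by limma (adjusted p under 0.05), with a median difference of -0.14. Their mean log2 level was 11.97 to 12.00 on Atxn3-KO arrays and 12.46 to 12.48 on Atxn3-WT arrays. Thy1, which averaged 7.18 in Atxn3-KO MEFs and 11.39 in Atxn3-WT MEFs, had by far the largest difference of the list (-4.21) and weighs heavily in these means. Of 5 epithelial markers 2 were higher, Epcam and Krt18. Krt18 was dim in Atxn3-WT MEFs, so its difference is not exact. Krt19 averaged 9.62 in Atxn3-KO MEFs and 9.34 in Atxn3-WT MEFs and did not pass, nor did Krt8, and Cdh1 was dim in both genotypes. Of 5 endothelial markers 0 passed and 3 were dim in both. The others were Kdr, at 6.73 in Atxn3-KO MEFs and 6.67 in Atxn3-WT MEFs, and Cdh5, at 5.02 and 5.03. The part of these shifts in the results was not tested. Of 11 measured blood cell markers, 0 passed, and only Ptprc, Cd3g and Itgam were dim in both genotypes. The brightest, Csf1r, averaged 6.72 in Atxn3-KO MEFs and 6.76 in Atxn3-WT MEFs. Lyz2 averaged 6.61 in Atxn3-KO MEFs and 6.45 in Atxn3-WT MEFs and narrowly missed the threshold (adjusted p = 0.0512 from limma). The mean log2 level of the blood cell list was 4.96 to 5.03 on Atxn3-KO arrays and 4.98 to 5.01 on Atxn3-WT arrays. In such bulk RNA, fewer cells that express a gene and less of its RNA per cell cannot be told apart.

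Most STAT and Janus kinase probe sets differed little between the genotypes. At an adjusted p under 0.05 from limma, 3 of the 19 were higher in Atxn3-KO MEFs, 2 were lower and 14 did not pass. The called share of 26.3% lies near the 26% of all 45037 probe sets called in either direction (12.5% higher and 13.5% lower), so this share is not a result about these genes. At the stricter thresholds of the study (adjusted p 0.001 or below, 2-fold change), 0 of the 19 passed, against 1.31% of all probe sets, and 8 of the 19 had an unadjusted p under 0.05 from limma, as did 36.6% of all probe sets. The largest difference was 0.46, or 1.38-fold. The median size of the differences was 0.108 among the 19 probe sets and 0.106 among all probe sets. The 3 Atxn3-KO arrays lay wholly above or below the 3 Atxn3-WT arrays for 9 of the 19 (47.4%), against 41.1% of all probe sets. Jak2 was the gene whose probe sets rose together, Stat6 the one whose probe sets fell together, and Stat2 had 1 probe set that rose and 1 that missed the threshold.

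**Figure D1:**
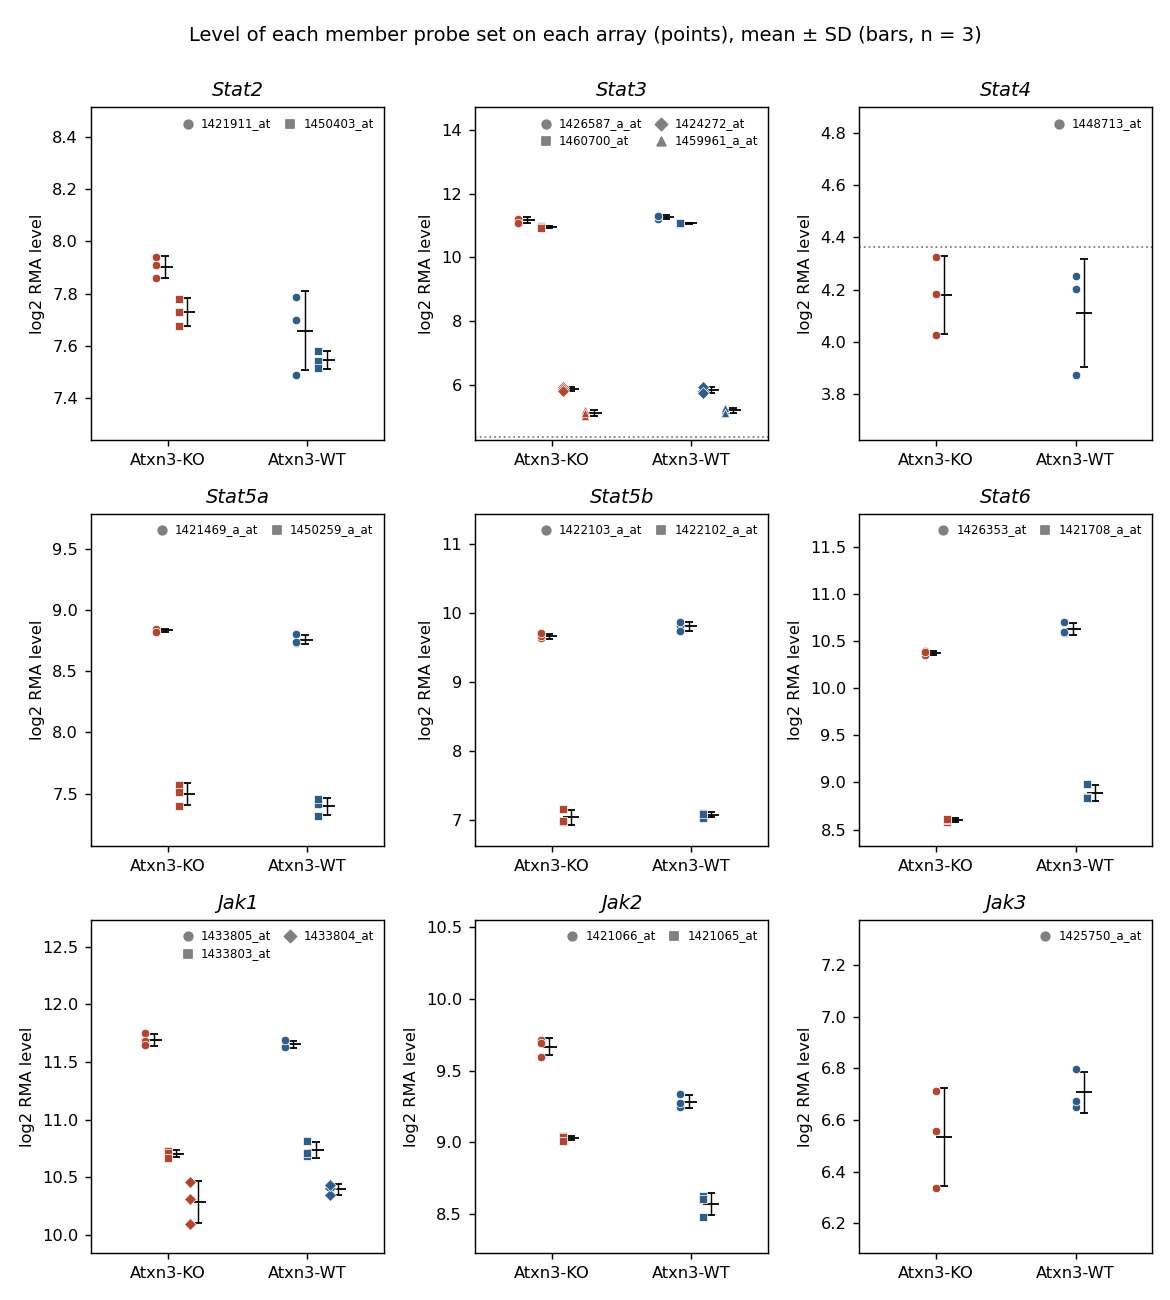
Log2 RMA level (vertical axis, with its own range in each panel) of every probe set of the 9 genes on the 3 Atxn3-KO and 3 Atxn3-WT arrays, with a marker shape for each probe set, bars for mean ± SD and a dotted line at 4.36, the level below which a probe set is called dim. Both Jak2 probe sets lie higher and both Stat6 probe sets lie lower on all Atxn3-KO arrays, and Stat4 lies below the dotted line.

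Jak2, the kinase that serves receptors for growth hormone, erythropoietin, interferon gamma and the gp130 family among others, was higher in Atxn3-KO MEFs by both of its probe sets. The dimmer probe set read 9.04, 9.04 and 9.01 on the Atxn3-KO arrays and 8.62, 8.48 and 8.61 on the Atxn3-WT arrays. The lowest Atxn3-KO array lay above the highest Atxn3-WT array, and the Atxn3-KO arrays were closer together. The difference was 0.46 (standard error 0.052, 95% interval 0.34 to 0.58, adjusted p = 7.55e-04 from limma), a fold of 1.38. The brighter probe set read 9.60, 9.71 and 9.69 on the Atxn3-KO arrays and 9.24, 9.27 and 9.33 on the Atxn3-WT arrays. These groups did not overlap either, and the difference was 0.38 (standard error 0.051, 95% interval 0.26 to 0.50, adjusted p = 0.00151 from limma), a fold of 1.30. With the replicate number as a block, the array weights, the scalings, filters and variance models tried and each array left out in turn, the 2 differences stayed between 0.36 and 0.49 with adjusted p-values of at most 0.00815.

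Stat6, the STAT of interleukin 4 and interleukin 13 signaling, was lower in Atxn3-KO MEFs by both of its probe sets. The brighter probe set had levels of 10.35, 10.39 and 10.38 on the Atxn3-KO arrays and 10.59, 10.60 and 10.70 on the Atxn3-WT arrays. All Atxn3-KO arrays were below all Atxn3-WT arrays. The difference was -0.25 (standard error 0.048, 95% interval -0.37 to -0.14, adjusted p = 0.0072 from limma), which is 1.19-fold lower. The dimmer probe set had levels of 8.58, 8.60 and 8.62 on the Atxn3-KO arrays and 8.85, 8.84 and 8.99 on the Atxn3-WT arrays, again without overlap, and a difference of -0.29 (standard error 0.054, adjusted p = 0.00656 from limma), which is 1.22-fold lower. Over the alternatives tried, the 2 differences lay between -0.32 and -0.22, with adjusted p-values of at most 0.0285.

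Stat2, the STAT that joins IRF9 in the complex induced by type I interferon, was higher by 1 probe set, and that call was not firm. This dimmer probe set read 7.73, 7.78 and 7.67 on the Atxn3-KO arrays and 7.58, 7.54 and 7.52 on the Atxn3-WT arrays. The groups were separate, and the difference was 0.18 (standard error 0.047, 95% interval 0.071 to 0.29, adjusted p = 0.0275 from limma), a fold of 1.13. The adjusted p from limma was 0.0722 without Atxn3-KO replicate 1, 0.0973 without Atxn3-KO replicate 2, 0.0741 without Atxn3-WT replicate 2 and 0.0902 without Atxn3-WT replicate 3. The brighter Stat2 probe set read 7.94, 7.91 and 7.86 on the Atxn3-KO arrays and 7.79, 7.49 and 7.70 on the Atxn3-WT arrays, where replicate 2 was the lowest. Its difference of 0.24 (standard error 0.078) missed the threshold (adjusted p = 0.0581 from limma), and it depended on single arrays: by limma it was 0.31 without Atxn3-WT replicate 1 (adjusted p = 0.0337), 0.16 without Atxn3-WT replicate 2 (adjusted p = 0.0991) and 0.23 without Atxn3-KO replicate 1 (adjusted p = 0.148). Averaged over both probe sets on each array, Stat2 had a difference of 0.21 (standard error 0.052, adjusted p = 0.0148 from limma over all genes).

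**Figure D2:**
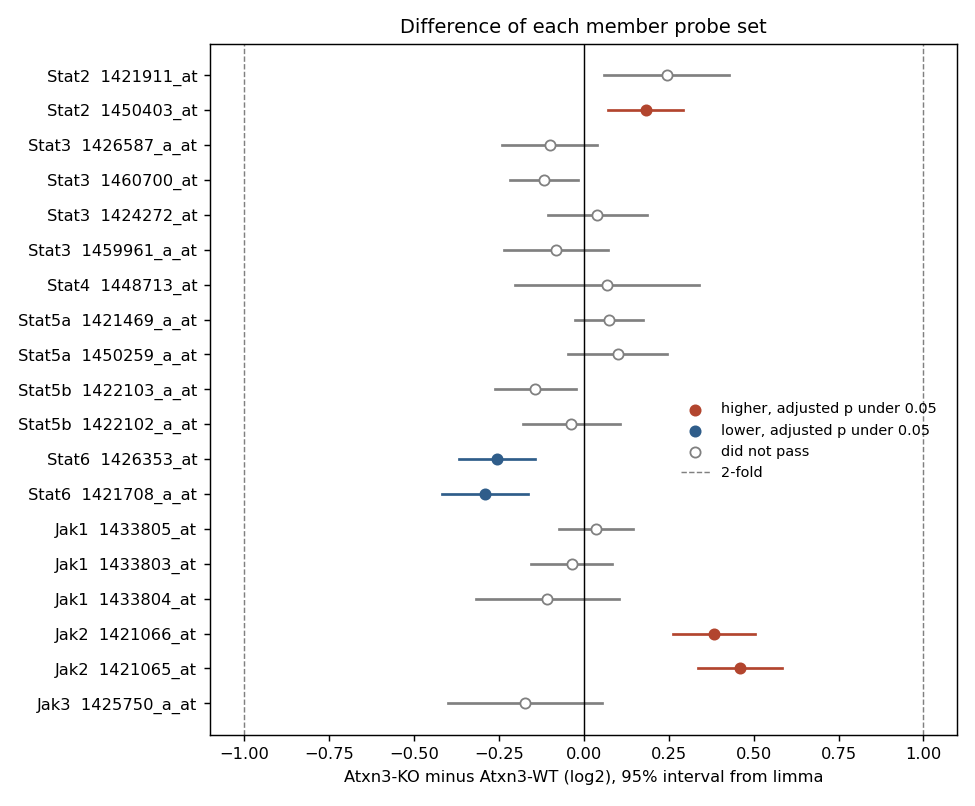
Difference between Atxn3-KO and Atxn3-WT MEFs on the log2 scale (horizontal axis) for the 19 probe sets, with 95% intervals from limma, filled points for an adjusted p under 0.05 and dashed lines at a 2-fold change. Jak2 stands highest, at 0.46 and 0.38, the Stat6 probe sets stand lowest, at -0.25 and -0.29, and no interval reaches a 2-fold change.

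The upstream sequence of these 3 genes is shown because they hold all the called probe sets. The sequences are from RefSeq on GRCm38.p6, plus strand in each case, and run 5′ to 3′ over the 250 bases before the annotated start. The windows are chr19:29251553-29251802 for Jak2, chr10:127642736-127642985 for Stat6 and chr10:128270248-128270497 for Stat2. Capitals mark matches on either strand to 4 motifs: the gamma-activated site that STAT dimers bind (TTCNNNGAA), the form that STAT6 prefers (TTC and GAA with any 4 bases between), the core of the interferon-stimulated response element (GAAA, any 2 bases, GAAA) and the GC box (GGGCGG).
Jak2: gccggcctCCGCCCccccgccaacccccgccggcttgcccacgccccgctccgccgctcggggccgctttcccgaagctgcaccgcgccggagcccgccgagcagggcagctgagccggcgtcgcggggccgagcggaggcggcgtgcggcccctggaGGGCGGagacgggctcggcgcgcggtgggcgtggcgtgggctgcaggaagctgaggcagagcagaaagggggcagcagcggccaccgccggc
Stat6: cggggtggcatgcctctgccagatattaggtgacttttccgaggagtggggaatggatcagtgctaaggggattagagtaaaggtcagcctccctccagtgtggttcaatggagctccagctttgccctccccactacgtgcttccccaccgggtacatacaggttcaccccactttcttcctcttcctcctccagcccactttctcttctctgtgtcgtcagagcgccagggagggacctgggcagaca
Stat2: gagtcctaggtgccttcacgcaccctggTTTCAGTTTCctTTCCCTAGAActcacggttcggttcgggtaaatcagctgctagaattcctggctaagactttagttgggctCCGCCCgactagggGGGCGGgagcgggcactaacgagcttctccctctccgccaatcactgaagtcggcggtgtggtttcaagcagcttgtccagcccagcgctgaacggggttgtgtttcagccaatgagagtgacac
The Stat2 window held the interferon response core, as TTTCAGTTTC on the opposite strand, at bases -222 to -213 before the start, and TTCCCTAGAA, a match to the wider STAT6 form, at bases -210 to -201, with no overlap between them. It also held a GC box on each strand. Jak2 held a GC box on each strand and no match to the other 3 motifs, and its window was 80.8% G and C. Stat6 held no match to any of the 4. Among 32851 RefSeq promoter windows of the same length, 2.98% held the interferon response core, 7.02% the gamma-activated site, 5.85% the wider STAT6 form and 32.7% the GC box. All 9 genes had an entry, with 12 windows in total, of which 0 held a gamma-activated site, 2 held an interferon response core (Stat2 and 1 of the Stat4 windows) and 7 held a GC box. A match is a stretch of letters and no measured site.

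The remaining STAT genes did not pass the threshold. Stat5b, Stat5a and Stat3 follow one another directly on chromosome 11 in the RefSeq annotation, and their probe sets gave differences from -0.14 to 0.10. Stat3, the STAT of interleukin 6 type cytokines, has 4 probe sets, with differences, from the brightest to the dimmest, of -0.10, -0.12, 0.04 and -0.08. The second of these read 10.98, 10.97 and 10.91 on the Atxn3-KO arrays and 11.05, 11.07 and 11.09 on the Atxn3-WT arrays. Its groups did not overlap, but its adjusted p was 0.0873 from limma, with a 95% interval of -0.22 to -0.02. The brightest Stat3 probe set read 11.22, 11.22 and 11.07 on the Atxn3-KO arrays and 11.20, 11.29 and 11.32 on the Atxn3-WT arrays, which overlap, with an adjusted p of 0.281 from limma and a 95% interval of -0.24 to 0.04. Any change larger than 1.18-fold lower or 1.03-fold higher lies outside that interval.

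Stat5a and Stat5b encode closely related proteins that respond to the same receptors. Both Stat5a probe sets had positive differences, 0.07 for the brighter (95% interval -0.03 to 0.17, adjusted p = 0.267 from limma) and 0.10 for the dimmer (95% interval -0.05 to 0.25, adjusted p = 0.304 from limma). The Stat5b probe sets had negative differences, -0.14 for the brighter (95% interval -0.26 to -0.02, adjusted p = 0.082 from limma) and -0.04 for the dimmer (95% interval -0.18 to 0.11, adjusted p = 0.726 from limma). The brighter Stat5b probe set read 9.63, 9.66 and 9.71 on the Atxn3-KO arrays and 9.82, 9.74 and 9.87 on the Atxn3-WT arrays, without overlap. Stat4 was dim in both genotypes, with levels of 4.18, 4.32 and 4.03 on the Atxn3-KO arrays and 3.88, 4.20 and 4.25 on the Atxn3-WT arrays, so no fold is given for it (adjusted p = 0.727 from limma).

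Jak1, the kinase that most class II and gp130 type cytokine receptors share, has 3 probe sets, and none of them passed. Its brightest read 11.75, 11.68 and 11.65 on the Atxn3-KO arrays and 11.65, 11.63 and 11.69 on the Atxn3-WT arrays. The groups overlapped, and the difference of 0.04 had a 95% interval of -0.07 to 0.15 (adjusted p = 0.637 from limma), which leaves out a rise above 1.11-fold or a fall beyond 1.05-fold. The other Jak1 probe sets had differences of -0.04 (adjusted p = 0.669 from limma) and -0.11 (adjusted p = 0.446 from limma), and the last was the most variable of the 3, at 10.46, 10.32 and 10.10 on the Atxn3-KO arrays and 10.41, 10.34 and 10.44 on the Atxn3-WT arrays. Jak3, the kinase of the common gamma chain in lymphocytes, read 6.56, 6.34 and 6.71 on the Atxn3-KO arrays and 6.65, 6.67 and 6.80 on the Atxn3-WT arrays with its 1 probe set. These overlap, with a difference of -0.17 (95% interval -0.40 to 0.05, adjusted p = 0.252 from limma). A further 2 probe sets name Jak3 together with its neighbour Insl3, a relaxin family hormone gene, and were left out of the counts. They had differences of -0.04 (adjusted p = 0.743 from limma) and -0.03 (adjusted p = 0.84 from limma, dim in both genotypes).

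The genes whose levels followed Jak2 most closely over the 6 arrays were looked up as a description. Taking the Jak2 probe set with the smallest p and each other gene by its brightest probe set, the highest Pearson correlations were 0.999 for Tmem218, a transmembrane protein gene, 0.999 for Lrrc75b, a leucine-rich repeat protein gene, and 0.999 for Xaf1, an interferon-inducible gene known for promoting cell death. The 6 arrays form 2 groups, so a gene that differs cleanly between the genotypes correlates highly with any other such gene. In all, 3009 genes had a correlation with this probe set above 0.95 in size.

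The surrounding pathway was described with 5 gene lists by role, each gene by its brightest probe set. Of all 18193 genes taken in this way, 31.8% passed the same threshold, 17.1% higher and 14.7% lower in Atxn3-KO MEFs, with a median difference of 0.0021. Among the 9 STATs and kinases themselves, 1 was higher (Jak2), 1 was lower (Stat6) and 7 did not pass, with a median of 0.04. Genes of these lists that fall outside the rule for named genes, namely Lif, Epor, Ifnar2, Socs4, Ptpn11, Ifnb1, Ifng, Socs3, Irf9, Ifi35, Ifit2, Ifih1, Mx1, Mx2, Ccnd1 and Cish, are given after their values were seen. The rule names genes with large called differences, so groups that do not overlap among them are not separate evidence.

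Of 17 measured ligands that signal through Janus kinases, 5 rose by limma (adjusted p under 0.05), 0 fell and 12 missed the threshold, with a median difference of 0.07. The called share of 29.4% lies near the 31.8% of all genes, so it is not a result about ligands as a class. Il6, the proinflammatory cytokine that uses gp130, read 6.46, 6.48 and 6.67 on the Atxn3-KO arrays and 5.53, 5.53 and 5.42 on the Atxn3-WT arrays. Il7, a growth factor for lymphocytes, read 8.58, 8.61 and 8.78 on the Atxn3-KO arrays and 7.61, 7.61 and 7.64 on the Atxn3-WT arrays. For both, every Atxn3-KO array was above every Atxn3-WT array, with differences of 1.04 (standard errors 0.069 and 0.062). Clcf1, another gp130 cytokine, had a difference of 0.53 (standard error 0.12), Il15, a lymphocyte growth factor, 0.35 (standard error 0.048), and Lif, which keeps stem cells undifferentiated, 0.17 (standard error 0.048). The interferon genes in the list did not pass, Ifnb1 at 5.21 ± 0.10 in Atxn3-KO MEFs and 5.14 ± 0.21 in Atxn3-WT MEFs (SD, n = 3 each), and Ifng dim in both genotypes. Without Atxn3-WT replicate 1, 3 ligands passed.

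Of 24 measured receptor chains, 7 rose, 2 fell and 15 missed the threshold, with a median difference of 0.05. Their called share was 37.5%, against 31.8% of all genes, and nothing is read from it about receptor chains as a class. Osmr, the oncostatin M receptor, read 11.08, 11.08 and 11.04 on the Atxn3-KO arrays and 10.51, 10.52 and 10.50 on the Atxn3-WT arrays, a difference of 0.55 (standard error 0.040). Il6ra, the interleukin 6 binding chain, had 0.49 (standard error 0.048) and Il4ra, which feeds into STAT6, had 0.40 (standard error 0.053). Csf2ra, the receptor chain for granulocyte-macrophage colony-stimulating factor, read 8.08, 8.17 and 8.23 on the Atxn3-KO arrays and 6.70, 6.35 and 6.48 on the Atxn3-WT arrays. The groups were far apart for this probe set, while the other Csf2ra probe set differed by 0.06, and Il6ra and Il4ra also had further probe sets with smaller differences that did not pass, the lowest at 0.04 and 0.12. The lower chains were Epor, the erythropoietin receptor, at -0.35 (standard error 0.058), and Ifnar2, a chain of the type I interferon receptor, at -0.14 (standard error 0.041). 

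Of 18 measured inhibitors of the pathway, 2 rose, 4 fell and 12 missed the threshold, with a median difference of -0.02. The called share of 33.3% is close to the 31.8% of all genes and is not a result about inhibitors as a class. Socs1, which blocks Janus kinases directly, read 7.09, 7.16 and 7.14 on the Atxn3-KO arrays and 6.51, 6.17 and 6.53 on the Atxn3-WT arrays. Usp18, an interferon-induced protease that also restrains the type I interferon receptor, read 11.06, 11.09 and 11.22 on the Atxn3-KO arrays and 9.66, 9.69 and 9.67 on the Atxn3-WT arrays. On the lower side, Socs2, the inhibitor of growth hormone signaling, read 7.31, 7.31 and 7.36 on the Atxn3-KO arrays and 8.12, 8.06 and 8.11 on the Atxn3-WT arrays. No array of one genotype overlapped the other for these 3 genes, and their differences were 0.73 (standard error 0.098), 1.44 (standard error 0.054) and -0.77 (standard error 0.043). Pias2, a SUMO ligase of the family that inhibits activated STATs, had -0.56 (standard error 0.041), Socs4 -0.38 (standard error 0.047) and Ptpn11, the phosphatase SHP2, -0.14 (standard error 0.040). Of 6 Socs2 probe sets 2 were lower and 0 higher, and of 3 Pias2 probe sets 1 was lower and 0 higher. Socs3, the inhibitor induced by STAT3, had a difference of 0.06 (standard error 0.042, adjusted p = 0.334 from limma).

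Target genes of the interferon complex that contains STAT2 were mostly higher in Atxn3-KO MEFs. Of 14 measured, 10 were higher (71.4%, against 17.1% of all genes), 0 fell and 4 missed the threshold, and the median difference was 0.54. All genes include dim ones, while 0 of these 14 were dim in both genotypes, and a share for genes of like level was not taken. With each array left out in turn, 9 or 10 of the 14 passed. Ifit3, an antiviral protein that binds IFIT1, read 9.34, 9.51 and 9.37 on the Atxn3-KO arrays and 7.84, 7.68 and 7.80 on the Atxn3-WT arrays, a difference of 1.64 (standard error 0.066). Irf7, the factor that amplifies type I interferon production, read 9.96, 10.03 and 10.15 on the Atxn3-KO arrays and 8.80, 8.62 and 8.63 on the Atxn3-WT arrays, a difference of 1.36 (standard error 0.071). Ifit1, which binds foreign RNA, read 10.66, 10.73 and 10.80 on the Atxn3-KO arrays and 9.87, 9.78 and 9.80 on the Atxn3-WT arrays, a difference of 0.91 (standard error 0.053). Usp18, given above, belongs to this list too. For each of these 4 genes all Atxn3-KO arrays were above all Atxn3-WT arrays. Irf9, the DNA-binding partner of STAT2, had a difference of 0.39 (standard error 0.044, adjusted p = 7.63e-04 from limma). Ifit2 (-0.07), Ifih1 (0.05), Mx2 (0.15) and Mx1 (-0.15, dim in Atxn3-KO MEFs) did not pass. The list was chosen with earlier results of these samples known.

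**Figure D3:**
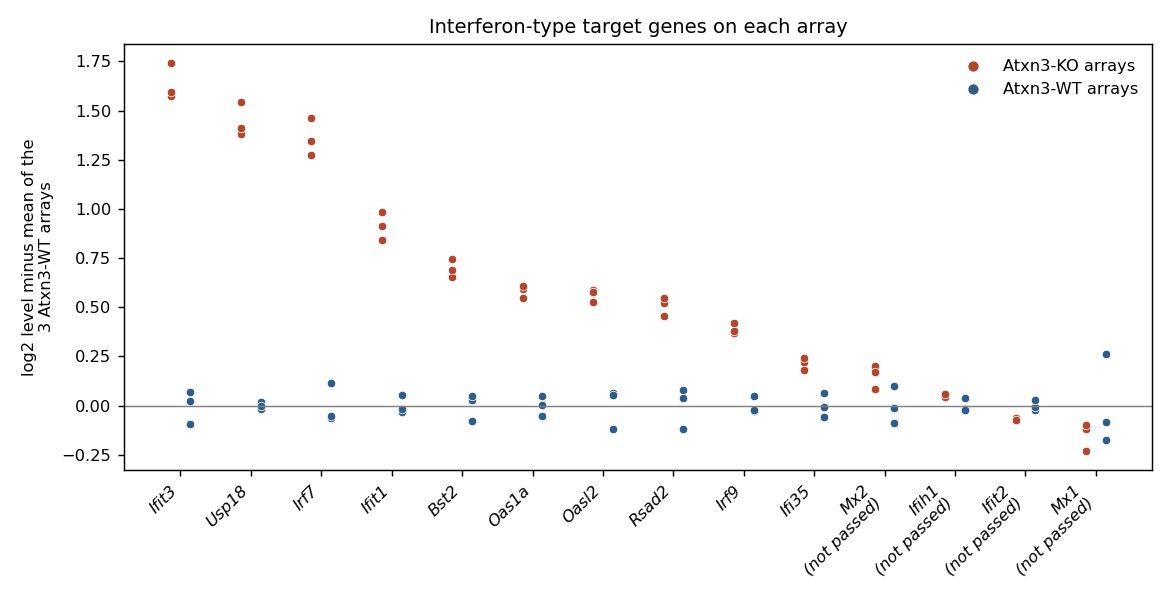
Log2 level on each array minus the mean of the 3 Atxn3-WT arrays (vertical axis) for the 14 interferon-type target genes, with Atxn3-KO arrays left of Atxn3-WT arrays for each gene. For the 10 genes that passed, all Atxn3-KO arrays lie above all Atxn3-WT arrays, from Ifit3 (1.64) down to Ifi35 (0.22). Because these genes were picked by passing, this is not separate evidence. Of all probe sets, 41.1% had groups that did not overlap.

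Known targets of STAT3, STAT5 or STAT6 moved both ways, more of them up. Of 20 measured, 10 rose, 3 fell and 7 missed the threshold, with a median difference of 0.15. Their called share was 65%, against 31.8% of all genes, in a list chosen with earlier results of these samples known. Of these 20, 1 was dim in both genotypes, and here too a share for genes of like level was not taken. Lcn2, the acute phase protein lipocalin 2, read 6.37, 6.72 and 6.61 on the Atxn3-KO arrays and 5.45, 4.93 and 4.78 on the Atxn3-WT arrays, a difference of 1.51 (standard error 0.17). Junb, a subunit of the AP-1 factor, read 10.43, 10.52 and 10.38 on the Atxn3-KO arrays and 9.73, 9.60 and 9.74 on the Atxn3-WT arrays, a difference of 0.75 (standard error 0.060). Igf1, the growth factor that STAT5 induces after growth hormone, read 8.91, 8.96 and 8.83 on the Atxn3-KO arrays and 9.78, 9.71 and 9.69 on the Atxn3-WT arrays. All 4 Igf1 probe sets were lower, from -0.83 to -0.48. The other lower targets were Socs2, given above, and Ccnd1, cyclin D1, at -0.48 (standard error 0.051). Cish, the inhibitor that STAT5 induces most directly, had a difference of 0.01 (standard error 0.045, adjusted p = 0.899 from limma). Many of these genes answer to other factors as well, and 5 of them (Osmr, Il4ra, Socs2, Socs3 and Cish) stand in the receptor or inhibitor list too.

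**Figure D4:**
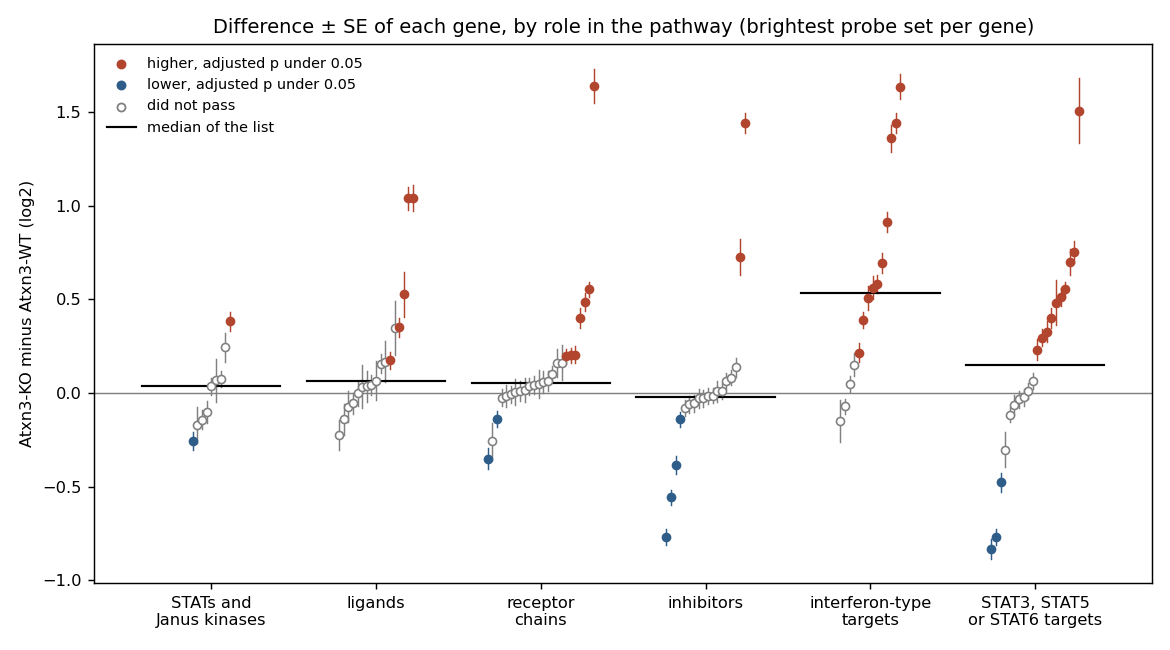
Difference between Atxn3-KO and Atxn3-WT MEFs (log2, vertical axis) ± standard error for each gene, grouped by role, with filled points for an adjusted p under 0.05 from limma and a bar at the median of each list. The medians are 0.04 for the STATs and kinases, 0.07 for ligands, 0.05 for receptor chains, -0.02 for inhibitors, 0.54 for interferon-type targets and 0.15 for targets of STAT3, STAT5 or STAT6.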

How the data were processed

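RNA of 3 Atxn3-KO and 3 Atxn3-WT MEF samples was hybridized to Affymetrix GeneChip mouse genome arrays. The authors deposited log2 values made by RMA (background correction, quantile normalization, 1 summary per probe set), a procedure that takes out any shift all genes share. RMA and limma are named in the submitters' processing notes, with versions not given in the sources used here. Here lmFit and eBayes of limma 3.58.1 (R 4.3.3) fitted the deposited values as Atxn3-KO minus Atxn3-WT, all arrays weighted alike, since the weights of the study's linear model are not named. Benjamini-Hochberg adjustment ran over 45037 probe sets, without 64 controls and without a filter on low values. Intervals are 95% intervals of the fit. The array number limits the precision.

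Gene symbols came from the platform annotation, and probe sets that name several genes or none were left out. Where 1 value per gene is given it is that of the probe set with the highest mean over the 6 arrays. Of the genes on the marker and pathway lists, 10 had no probe set naming them alone in the table used here. All probe sets of the STATs and kinases are named, with up to 4 genes per list with the largest called difference. The members and lists were chosen with earlier results of these data known. The fit was tested on simulated data with known changes. Alternatives were array weights, a replicate block, scaling, filtering, variance models, averaging of probe sets and leaving out each array.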

Additional observations from a re-analysis of the deposited data

How the results depend on the processing

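Jak2 (both probe sets higher) and Stat6 (both lower) kept direction and call under all 13 alternatives run on the probe sets. Counts of member genes higher were 2, with Stat2 added to Jak2, under array weights, median centring of each array, omission of probe sets under the median level, an intensity trend in eBayes and averaging of the probe sets of a gene. Under that filter and under the trend, 4 member probe sets were lower (those of Stat6, the brighter Stat5b probe set at adjusted p = 0.0268 and 0.0182, and the second brightest of Stat3 at 0.0226 and 0.00883 from limma) and 2 member genes were lower. The filter tests fewer probe sets, and the cause of the shift under the trend was not tested. With each array left out in turn, 2 to 4 member probe sets were higher and 2 were lower, 1 to 2 member genes were higher and 1 was lower, and 0 passed the 2-fold threshold. The lists then had 3 to 6 ligands, 7 to 9 receptor chains, 5 inhibitors, 9 to 10 interferon-type targets and 11 to 13 other STAT targets called. The share of all probe sets or genes called was taken for the main fit only. Counts under the alternatives, the replicate block included, are therefore not read as results about these genes.

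Deviations of same-numbered arrays correlated at -0.036 to 0.021, and those of differently numbered arrays at -0.023 to 0.048. With 3 arrays per genotype these values cannot decide whether same-numbered samples were paired, and the sources used here do not say. With the replicate block, 2 member probe sets were higher and 2 lower, the dimmer Stat2 probe set having an adjusted p of 0.0563 from limma. With 3 arrays per genotype, precision is limited for differences of the size seen in Stat2, Stat3 and Stat5b.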
